A study of Mus musculus with 9 samples.

Results

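The subject is 10 genes of transforming growth factor beta (TGF-beta) signalling in mouse kidney. They were taken by name: the ligands Tgfb1, Tgfb2 and Tgfb3, the receptors Tgfbr1, Tgfbr2 and Tgfbr3, the latent binding protein genes Ltbp1 and Ltbp2, and the related ligand genes Bmp7 and Inhba. Each name was found on 1 row of a table of 55385 genes. All 10 were among the 21392 genes that passed the filter on low counts and were tested. Ltbp2 passed it only through the HN and PEC libraries, since its counts in Control were 4, 8 and 4, and a gene that passes in this way had to differ between the groups.

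RNA sequencing covered kidney tissue of 9 C57BL/6J mice (labelled C57BL/6), with 3 mice in each of 3 groups and 1 library per mouse. Control mice had neither the induction nor pectolinarigenin, and whether they were given a vehicle is not stated in the study's methods. HN mice had hyperuricemic nephropathy, a kidney disease with raised uric acid, induced over 4 weeks with adenine at 0.16 g/kg together with the uricase inhibitor potassium oxonate at 2.4 g/kg. PEC mice had the same induction and were given the flavonoid pectolinarigenin at 25 mg/kg by mouth each day, over the same 4 weeks as the induction. No group received pectolinarigenin without the induction, so its effect in healthy kidney was not measured. The mice were male and 8 to 10 weeks old, in study groups of 8, of which 3 each were sequenced. Although the titles of the Control libraries mention HN mice, their stated disease state is control, which was followed. Libraries are named here by group and number: Control 2, 4 and 5, HN 4, 8 and 12, and PEC 1, 2 and 3, and values are given in this order. Total counts per library ran from 57714111 to 81069646 (median 74397038).

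TGF-beta ligands are secreted in a latent form, bound to their own propeptide and, through it, to a latent TGF-beta binding protein in the extracellular matrix. Once released, a ligand joins the type II receptor Tgfbr2 to the type I receptor Tgfbr1, which phosphorylates SMAD2 and SMAD3, and in injured kidney this pathway is known for driving matrix production. Bone morphogenetic proteins (BMPs) signal through other receptors and SMAD1, SMAD5 and SMAD9, and Bmp7 is known for keeping kidney epithelium differentiated.

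None of the 10 genes encodes a BMP antagonist, although the working name of the group speaks of BMP antagonism. Bmp7 is a BMP ligand, Inhba encodes the subunit of activin A, and the antagonists themselves are described from a list further on. The 10 genes lie on 9 chromosomes. Tgfb3 and Ltbp2 share chromosome 12, with 1180212 bases between them. Their coordinates in the table are those of the build GRCm38.

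Promoters were read because most of the 10 genes moved together between the groups. The set of RefSeq promoters used here (GRCm38.p6) held 9 start sites for 7 of the genes, and none for Tgfb3, Tgfbr3 and Bmp7. These 3 genes have annotated transcripts and coordinates, so that the gap is one of the set used. In the 250 bases before each start, 4 motifs were searched on both strands: the SMAD box CAGAC, the AP-1 motif TGANTCA, the Sp1 motif GGGCGG and the TATA box TATAAA. The SMAD box was found at 6 start sites of 5 genes (Tgfb2, Tgfbr1, Tgfbr2, Ltbp1 and Ltbp2), against 42.2% of all 32851 promoters. Sp1 motifs were found at 3 start sites (Tgfb1, Tgfbr1 and Ltbp2), against 32.7%, and TATA boxes at 2 (Tgfb2 and Inhba), against 12.4%. The AP-1 motif was found at 0 of the 9, against 6.75%. A match describes letters in these windows and shows no binding. The promoters of 5 genes follow, 5′ to 3′ on the strand of the gene, with motif matches in capitals: the most abundant of the 3 TGF-beta ligands (Tgfb1), the one of these 3 with the largest edgeR fold change between HN and Control (Tgfb2), the type II receptor (Tgfbr2), and the 2 genes nearest to 0 in Control (Ltbp2 and Inhba).

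Tgfb1, chr7:25686752-25687001, plus strand: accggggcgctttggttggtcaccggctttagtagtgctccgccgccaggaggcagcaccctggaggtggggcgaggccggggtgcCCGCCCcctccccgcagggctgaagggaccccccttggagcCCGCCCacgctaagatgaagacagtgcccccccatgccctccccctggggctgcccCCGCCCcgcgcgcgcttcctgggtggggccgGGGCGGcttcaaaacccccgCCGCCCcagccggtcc
Tgfb2, chr1:186705990-186706239, minus strand: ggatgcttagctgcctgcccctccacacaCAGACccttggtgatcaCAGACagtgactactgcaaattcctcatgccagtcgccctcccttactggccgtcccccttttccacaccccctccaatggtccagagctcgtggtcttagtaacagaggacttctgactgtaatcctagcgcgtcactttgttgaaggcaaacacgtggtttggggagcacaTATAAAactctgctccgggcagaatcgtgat
Tgfbr2, chr9:116175364-116175613, minus strand: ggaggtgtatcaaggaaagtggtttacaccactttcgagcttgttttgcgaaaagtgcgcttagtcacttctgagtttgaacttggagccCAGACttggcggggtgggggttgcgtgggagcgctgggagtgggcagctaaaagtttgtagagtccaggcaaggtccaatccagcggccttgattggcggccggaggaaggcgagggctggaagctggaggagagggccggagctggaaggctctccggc
Ltbp2, chr12:84876533-84876741, minus strand: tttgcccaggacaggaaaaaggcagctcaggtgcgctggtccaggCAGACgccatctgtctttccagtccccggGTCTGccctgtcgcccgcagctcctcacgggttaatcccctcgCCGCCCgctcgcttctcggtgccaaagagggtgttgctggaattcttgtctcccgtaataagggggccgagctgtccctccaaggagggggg
Inhba, chr13:16011601-16011850, plus strand: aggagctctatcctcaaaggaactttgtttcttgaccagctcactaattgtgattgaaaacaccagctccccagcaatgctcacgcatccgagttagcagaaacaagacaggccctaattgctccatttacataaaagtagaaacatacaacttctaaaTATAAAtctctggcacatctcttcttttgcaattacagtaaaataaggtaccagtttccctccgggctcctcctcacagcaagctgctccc

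The Tgfb1 window had a GC content of 75.2%, against a median of 52.4% over all promoters, and held 5 Sp1 matches and no SMAD box. That of Tgfb2 held SMAD boxes 221 and 204 bases before the start and a TATA box 31 bases before it. The TATA box of Inhba lay 91 bases before its start. For Ltbp2, RefSeq places the start 41 bases inside the gene as the table has it, so that only the 209 bases before the table's start are printed. They hold 2 SMAD boxes and 1 Sp1 match.

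Differences between libraries that the groups alone do not describe come first. Mitochondrial transcripts held 14.2% ± 1.82 (SD, n = 3) of the counts in Control, 6.19% ± 0.164 (SD, n = 3) in HN and 12.3% ± 1.77 (SD, n = 3) in PEC. The ribosomal RNA locus AY036118 held 0.179%, 1.04% and 0.183% of the counts in PEC 1, 2 and 3, and at most 0.00158% in the other libraries. Adipocyte markers (Adipoq, Plin1 and Cidec) summed to 103.6 normalised FPKM in PEC 3 and to at most 6.98 elsewhere, and Adipoq and Plin1 were at 0 in some libraries. The labels name kidney as the source, but their protocol text speaks of an adipose type of RNA for all 9 libraries, and whether fat was attached to any kidney was not tested. Without PEC 3, the 10 genes kept every direction and every call in the 3 comparisons. Without PEC 2, 1 call was lost (Bmp7 in PEC against HN, at 0.57) and 1 uncalled difference changed sign (Ltbp1 in PEC against Control, to 0.07). In PEC against HN, fold changes were related to gene length across 21358 genes (Spearman's rho −0.30, genes not being independent replicates), against 0.0856 in HN against Control and −0.167 in PEC against Control. With GC content, rho was 0.170 in PEC against HN, 0.0399 in HN against Control and 0.193 in PEC against Control. The part of these differences in the results below was not tested, except through the other scalings described with them.

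Levels are given as normalised FPKM, that is, the count divided by the library's effective size (from edgeR's TMM factors) and by gene length, on the scale of FPKM. Differences are log2 fold changes from edgeR's quasi-likelihood test on counts. SE is the standard error of such a fold change. To be called, a gene needed a 1.5-fold difference or more and an adjusted p no higher than 0.05, with the adjustment made over all tested genes.

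HN against Control asks what the disease model changes. Of the 10 genes, 9 were called, where 32.4% of all tested genes were. Called higher were 8, against 17.7% of all genes, and called lower was 1 (Bmp7), against 14.7%. These shares of all genes depend on the scaling, as described below. Tgfbr3 was not called. In all 10 genes the libraries of the groups did not overlap, 8 with HN higher and 2 with HN lower, where 55.4% of all genes did not overlap. Ltbp2 is included in these counts, although by the way it passed the filter it had to differ from Control. The median log2 fold change of the 10 was 1.64, against −0.00 for all tested genes. Since this is bulk tissue, fewer cells of a type and less RNA per cell cannot be told apart.

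PEC against HN asks what pectolinarigenin, given during the induction, changes in the kidney. All 10 genes were called under the main settings, where 28.7% of all tested genes were. Called lower were 9, against 15.3% of all, and called higher was 1 (Bmp7), against 13.4%, shares that also depend on the scaling. With library totals, nuclear protein-coding counts or limma on FPKM, 9 of the 10 were called, all lower. Once the dependence on gene length and GC content was removed, 8 were called, all lower, where 24.0% of all genes were. Libraries did not overlap in any of the 10, where 55.5% of all genes did not overlap. The median log2 fold change was −0.94, against −0.02 for all tested genes. PEC against Control asks what differs between treated and healthy kidneys. Of the 10, 6 were called, where 36.4% of all tested genes were, with 5 higher, against 18.9%, and 1 lower (Tgfbr3), against 17.4%. Among the 5, Ltbp2 had to differ from Control by the way it passed the filter. Libraries did not overlap in 9 of the 10, where 57.3% of all genes did not overlap, and those of Ltbp1 did. These overlaps are in normalised FPKM: in the deposited FPKM, PEC and Control also overlapped for Tgfbr1 and Bmp7, and HN and Control for Tgfbr3. Here the median log2 fold change was 0.86, against 0.04 for all tested genes. The 3 comparisons share libraries, so that their values are given side by side and are not independent of each other.

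**Figure D1:**
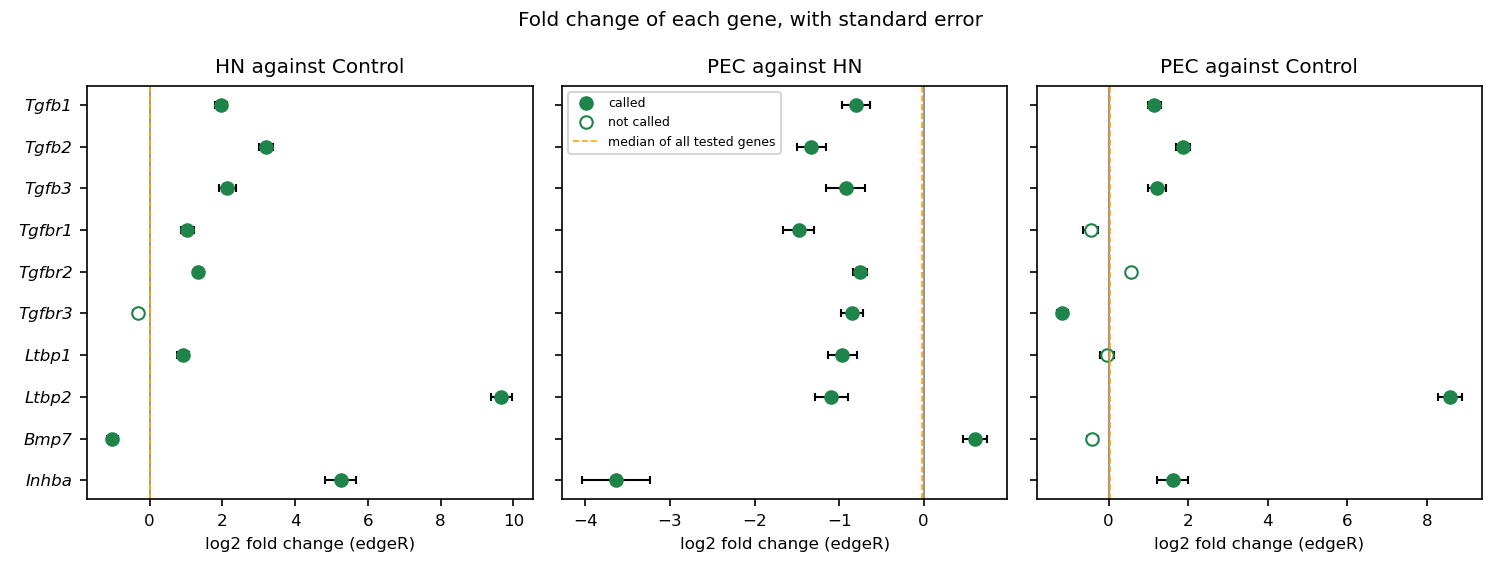
Log2 fold change (edgeR, bars SE) of each of the 10 genes in 3 comparisons, with filled points called, open points not called and a dashed line at the median of all tested genes. Under other scalings, the open points of Tgfbr3 (HN against Control), Tgfbr1 and Ltbp1 (PEC against Control) change sign and that of Bmp7 there reaches 0.00.

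The scaling of the libraries decides small differences here. With library totals in place of TMM, the median of all tested genes moved to 0.56 in HN against Control, −0.21 in PEC against HN and 0.40 in PEC against Control. Scaling by nuclear protein-coding counts, which leaves out mitochondrial transcripts and was chosen after seeing the data, moved it to 0.46, −0.07 and 0.45. FPKM rescaled to a common sum moved it to 0.75, −0.55 and 0.25, the deposited FPKM in limma to 0.35, −0.19 and 0.19 with a pseudocount of 1 and to 0.47, −0.25 and 0.26 with 0.1, and upper-quartile factors to 0.03, 0.11 and 0.20. The calls among all genes shifted too. In HN against Control, 3777 were higher and 3154 lower with TMM, and 7707 and 1287 with library totals. With FPKM rescaled to a common sum, 9273 of 15508 genes were higher and 633 lower. PEC against HN gave 2875 higher and 3266 lower, 1951 and 4631, and 919 and 7063 in the same order. PEC against Control gave 4053 and 3731, 6414 and 1962, and 4433 and 1637. The 8 genes called higher in HN were called higher under all 8 alternative scalings and tools. Bmp7 was called lower in HN under 3 of the 8, with log2 fold changes from −1.11 to −0.09, or −1.14 to −0.78 when the median of all genes in the same fit is subtracted.

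**Figure D2:**
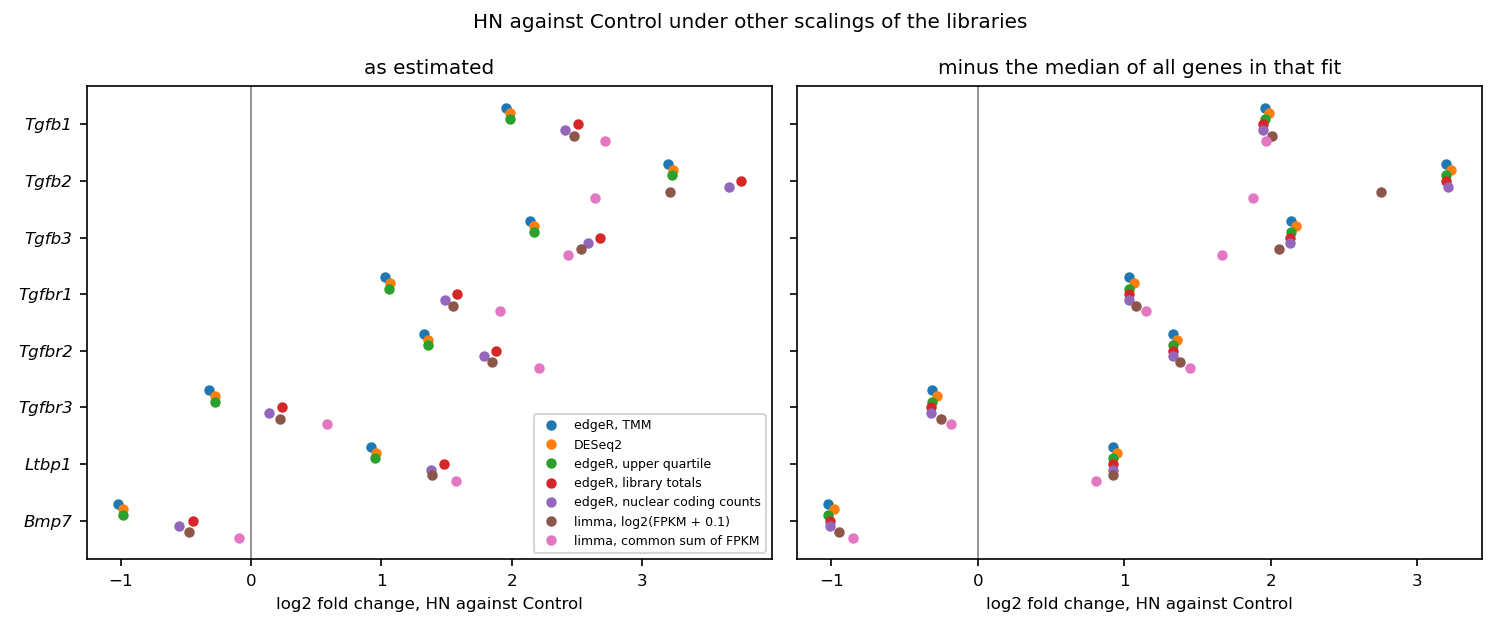
HN against Control under 7 of the scalings and tools, for 8 of the 10 genes (Ltbp2 and Inhba lie off this range): log2 fold change as estimated on the left, and minus the median of all genes in the same fit on the right. On the left, Tgfbr3 changes sign between scalings and Bmp7 approaches 0, whereas on the right Tgfbr3 and Bmp7 stay below 0 and the other genes above it.

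Among the 3 TGF-beta ligands, Tgfb1 (ENSMUSG00000002603) was the most abundant in each group. Its level was 3.88, 4.03 and 2.56 normalised FPKM (Control), 13.9, 13.9 and 12.9 (HN) and 6.91, 7.94 and 8.47 (PEC). Every HN library was above every PEC library, and every PEC library above every Control library. The group levels were 3.49 ± 0.806, 13.6 ± 0.538 and 7.77 ± 0.793 (SD, n = 3 each). The log2 fold change was 1.96 (SE 0.17, edgeR adjusted p = 2.4e-05) in HN against Control and −0.80 (SE 0.16, adjusted p = 0.00447) in PEC against HN. In PEC against Control it was 1.15 (SE 0.16, edgeR adjusted p = 0.000468), so that Tgfb1 was lower in PEC than in HN mice and above Control.

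Tgfb2 (ENSMUSG00000039239) encodes an isoform that binds Tgfbr2 weakly without the co-receptor Tgfbr3. It was measured at 0.298, 0.235 and 0.248 normalised FPKM (Control), 2.32, 2.14 and 2.71 (HN) and 0.845, 1.11 and 0.897 (PEC). The 3 groups did not overlap, and PEC again lay between the other two. With edgeR it had the largest log2 fold change of the 3 TGF-beta ligands in HN, 3.20 (SE 0.18, edgeR adjusted p = 3.56e-06), and in PEC against HN, −1.33 (SE 0.17, adjusted p = 0.000393). With limma on log2(FPKM + 1), which compresses low levels, it gave 1.66 in HN against 2.16 for Tgfb1, and with FPKM rescaled to a common sum 2.64 against 2.72, so that this order depends on the scale. PEC remained above Control by 1.87 on the log2 scale (SE 0.18, edgeR adjusted p = 4.77e-05). An antisense gene that shares 124 exon bases with it, Gm29491, had at most 3 counts in any library.

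Tgfb3 (ENSMUSG00000021253), the remaining isoform, stood at 1.03, 0.865 and 0.543 normalised FPKM (Control), 4.12, 3.5 and 3.11 (HN) and 1.80, 1.90 and 1.97 (PEC). Its groups kept the same order, without overlap. The log2 fold changes were 2.14 (SE 0.23, edgeR adjusted p = 9.6e-05) in HN against Control, −0.92 (SE 0.23, adjusted p = 0.0108) in PEC against HN and 1.22 (SE 0.23, adjusted p = 0.00221) in PEC against Control. Summed, the 3 ligands gave 4.56 ± 1.05, 19.5 ± 0.776 and 10.6 ± 0.937 normalised FPKM in Control, HN and PEC (SD, n = 3 each).

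**Figure D3:**
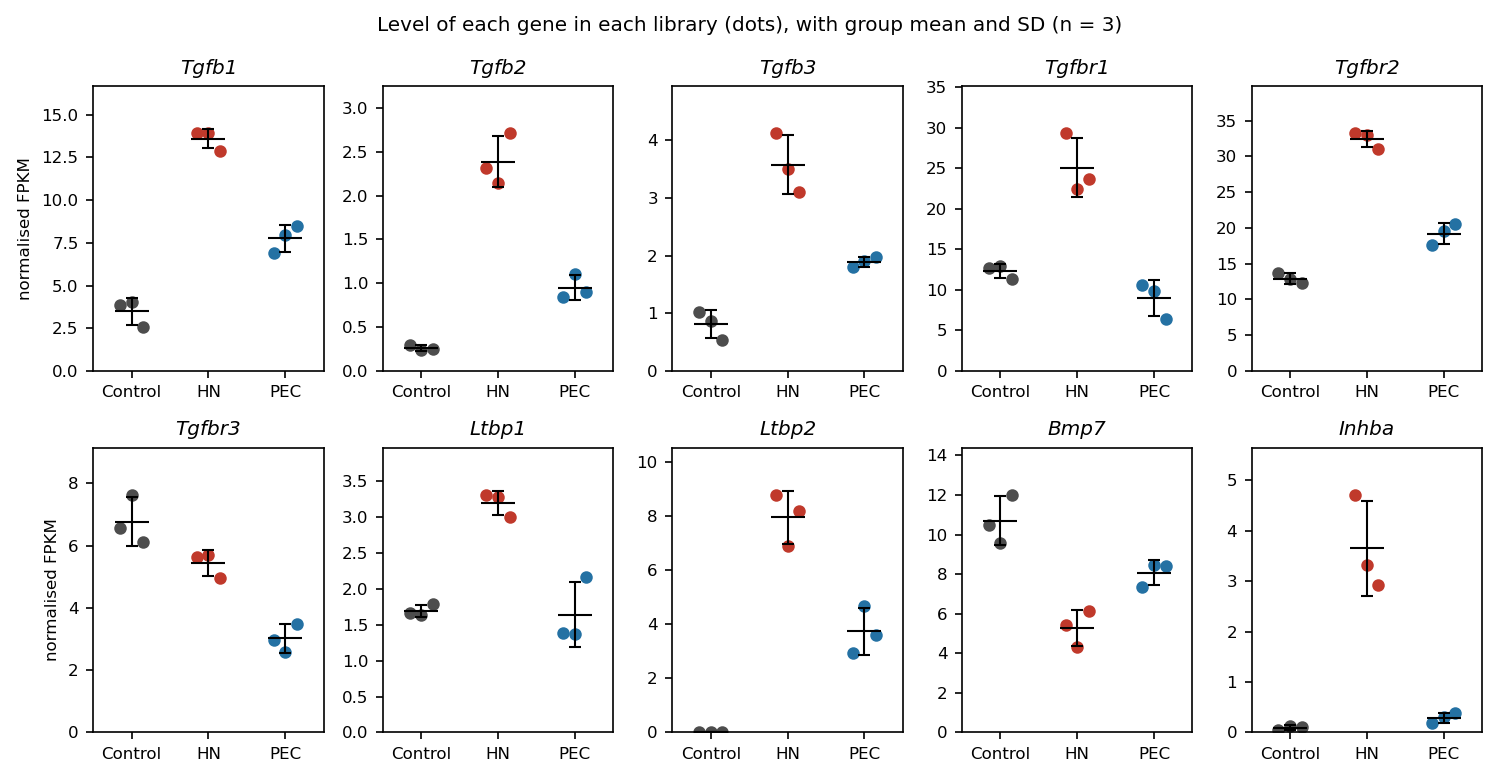
Level of each of the 10 genes in each of the 9 libraries, in normalised FPKM (dots, libraries; lines, group means; bars, SD, n = 3). Of the 10 genes, 9 are lower in every PEC than in every HN library, and the order of HN and Control for Tgfbr3 reverses under 5 of 8 other scalings.

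Within a library, ratios of FPKM do not depend on its scaling. Of the FPKM of the 3 ligands, Tgfb1 made up 74.5%, 78.7% and 76.3% (Control), 68.3%, 71.1% and 69.0% (HN) and 72.3%, 72.5% and 74.7% (PEC). HN was below both other groups without overlap, while PEC 3 (74.7%) lay above Control 2 (74.5%). In counts, without division by length, PEC (76.0%, 75.7% and 78.3%) lay below Control (79.0%, 82.6% and 79.8%) without overlap, so that this overlap depends on the gene lengths used. Its share differed by −7.03 percentage points between HN and Control and by 3.75 between PEC and HN, each with p = 0.10 by a two-sided exact permutation test. In PEC against Control the difference was −3.28, with p = 0.20 in FPKM by the same two-sided exact test, and 0.10 is the smallest p that 3 against 3 libraries allow, so that no such ratio can pass 0.05.

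Tgfbr1 and Tgfbr2 had higher mean levels than any of the 3 ligands in each group. Tgfbr2 (ENSMUSG00000032440), the type II receptor that binds the ligand first, was at 13.7, 12.8 and 12.3 normalised FPKM (Control), 33.2, 33.0 and 31.1 (HN) and 17.6, 19.5 and 20.5 (PEC). It had the highest mean of the 10 genes in each group, and its groups did not overlap. The log2 fold change was 1.33 (SE 0.08, edgeR adjusted p = 5.57e-06) in HN against Control and −0.75 (SE 0.08, adjusted p = 0.000201) in PEC against HN. The latter was −0.53, under the fold threshold, once the dependence on gene length and GC content had been removed. In PEC against Control it was 0.57 (SE 0.08, edgeR adjusted p = 0.000513), which fell short of the fold threshold at 1.49-fold. It passed under all 8 alternative scalings (0.60 to 0.98), without Control 2 (0.61) and without PEC 1 (0.63).

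Tgfbr1 (ENSMUSG00000007613), the type I receptor kinase, was at 12.7, 12.9 and 11.3 normalised FPKM (Control), 29.3, 22.4 and 23.7 (HN) and 10.6, 9.92 and 6.46 (PEC). HN was high in all 3 libraries, and every PEC library was below every Control library, with PEC 3 lowest. The log2 fold change was 1.03 (SE 0.18, edgeR adjusted p = 0.00161) in HN against Control and −1.48 (SE 0.18, adjusted p = 0.00034) in PEC against HN. Over the 8 other scalings and tools the latter ran from −2.03 to −0.92 and was called under all 8. PEC against Control gave −0.45 (SE 0.18, edgeR adjusted p = 0.0696) and was not called, with −0.24 without PEC 3, −0.59 and a call without PEC 1, and 0.14 after removal of the dependence on length and GC content. Tgfbr1 and Tgfbr2 together summed to 25.2 ± 1.48, 57.6 ± 4.25 and 28.2 ± 1.21 normalised FPKM (SD, n = 3 each) in Control, HN and PEC.

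Tgfbr3 (ENSMUSG00000029287), or betaglycan, is a co-receptor that presents ligand to Tgfbr2 and has no kinase. Its level was 6.56, 7.63 and 6.11 normalised FPKM (Control), 5.65, 5.69 and 4.97 (HN) and 2.98, 2.58 and 3.5 (PEC). PEC was the lowest group and did not overlap the others, and HN lay just under Control. In HN against Control the log2 fold change of −0.32 (SE 0.13, edgeR adjusted p = 0.0886) was not called, and its sign turned positive under 5 of 8 other scalings, with values up to 0.58, or −0.35 to −0.16 relative to the median of all genes. In PEC it was lower than in HN by a log2 fold change of −0.85 (SE 0.13, edgeR adjusted p = 0.00125) and than in Control by −1.16 (SE 0.14, adjusted p = 0.000143). The same-strand gene Gm43422, which shares 297 exon bases with Tgfbr3, had at most 26 counts.

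Latent TGF-beta binding proteins tie the ligand complex to the matrix, and Ltbp2 differs in not binding it. Ltbp1 (ENSMUSG00000001870) was at 1.66, 1.63 and 1.79 normalised FPKM (Control), 3.31, 3.28 and 3.01 (HN) and 1.39, 1.37 and 2.17 (PEC). HN was above both other groups, and Control lay within the range of PEC, of which PEC 3 was high. The log2 fold changes were 0.92 (SE 0.17, edgeR adjusted p = 0.0021) in HN against Control and −0.96 (SE 0.17, adjusted p = 0.0022) in PEC against HN. PEC against Control gave −0.04 (adjusted p = 0.86 from edgeR), with either sign under other settings.

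Ltbp2 (ENSMUSG00000002020) had the largest relative difference of the 10. Its counts were 4, 8 and 4 (Control), 6779, 6067 and 6730 (HN) and 2069, 2829 and 1966 (PEC), or 0.00952 ± 0.00402, 7.94 ± 0.977 and 3.73 ± 0.87 normalised FPKM (SD, n = 3 each). From the lowest of the 10 genes in Control it became the fourth most abundant in HN, and no groups overlapped. Summed counts were 16, 19576 and 6864 in Control, HN and PEC. Scaled by effective library size (from the TMM factors), HN was 827 times Control (95% exact conditional interval 509 to 1448). PEC was 387 times Control (238 to 677). The intervals cover counting error only, and neither the spread between mice nor the choice of scaling. The log2 fold changes were 9.67 (SE 0.30, edgeR adjusted p = 4.79e-07) and 8.58 (SE 0.30, adjusted p = 1.22e-06), and both depend on the few Control counts and on the scale, with ranges over the 8 other scalings of 3.36 to 10.22 and 2.23 to 8.97. In PEC against HN the log2 fold change was −1.09 (SE 0.19, edgeR adjusted p = 0.00202). D030025P21Rik, an antisense gene that shares 764 exon bases with Ltbp2, had 0 counts in Control, 54 to 57 in HN and 16 to 92 in PEC. The use of strand in counting is not stated, so that reads of the 2 genes from the shared bases cannot be told apart.

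Bmp7 (ENSMUSG00000008999) ran opposite to the other ligands. It was at 10.5, 9.56 and 12 normalised FPKM (Control), 5.42, 4.32 and 6.13 (HN) and 7.36, 8.45 and 8.41 (PEC). All HN libraries were low, all Control libraries high and PEC between them, without overlap. The log2 fold change was −1.02 (SE 0.14, edgeR adjusted p = 0.000447) in HN against Control and 0.61 (SE 0.14, adjusted p = 0.00885) in PEC against HN, just over the fold threshold. The second call was lost without HN 8 (0.48) or without PEC 2 (0.57) and held under 2 of 8 other scalings (0.04 to 0.74), and it was not made without the filter on low counts (0.58). PEC against Control gave −0.41 (SE 0.14, edgeR adjusted p = 0.0426) and was not called. Over the 8 other scalings it ran from −0.63, called lower after removal of the dependence on length and GC content, to 0.00 with nuclear protein-coding counts.

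Set against Tgfb1 in the same library, Bmp7 had a log2 FPKM ratio of 1.41, 1.22 and 2.20 (Control), −1.39, −1.72 and −1.11 (HN) and 0.06, 0.0608 and −0.0422 (PEC). Bmp7 transcripts thus exceeded those of Tgfb1 in every Control library, Tgfb1 exceeded Bmp7 in every HN library, and the PEC libraries were near equality in FPKM. In counts, without division by length, the ratio in PEC was −0.268, −0.267 and −0.369, so that equality depends on the gene lengths used. The mean ratios of 1.61 ± 0.523, −1.40 ± 0.303 and 0.0262 ± 0.0593 (SD, n = 3 each) differed by −3.01 between HN and Control, 1.43 between PEC and HN and −1.58 between PEC and Control, each with p = 0.10 by a two-sided exact permutation test, the smallest it can give. These differences do not move with a factor applied to a whole library. They were not repeated with the dependence on length and GC content removed.

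**Figure D4:**
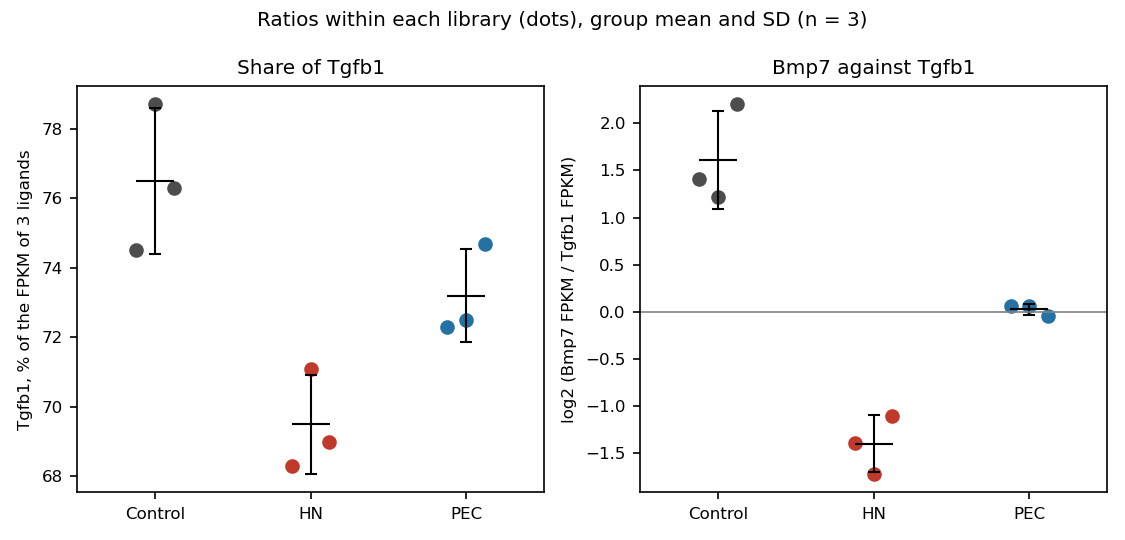
Share of Tgfb1 in the FPKM of the 3 TGF-beta ligands (left, %) and log2 ratio of Bmp7 to Tgfb1 FPKM (right) in each library with dots for libraries, lines for group means and bars for SD (n = 3). On the right, Control lies above 0, HN below −1.1 and PEC within 0.061 of 0.

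Inhba (ENSMUSG00000041324) encodes the beta A subunit of activin A, which signals through activin receptors and the same SMAD2 and SMAD3. Its level was 0.0459, 0.125 and 0.116 normalised FPKM (Control), 4.71, 3.32 and 2.92 (HN) and 0.193, 0.297 and 0.389 (PEC). HN stood far above both other groups, and PEC was close to Control, though without overlap. The log2 fold change was 5.25 (SE 0.43, edgeR adjusted p = 1.95e-05) in HN against Control and −3.64 (SE 0.40, adjusted p = 0.000184) in PEC against HN, the largest of the 10 genes in that comparison. Over the 8 other scalings the first ran from 2.29 to 5.80 and the second from −3.83 to −2.02. PEC was above Control by 1.61 (SE 0.39, edgeR adjusted p = 0.00835), a call that held under 6 of 8 other scalings, with values from 0.26 (limma on log2(FPKM + 1)) to 2.18.

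Ordered by mean level in Control, Tgfbr2, Tgfbr1 and Bmp7 came first, from 12.9 to 10.7 normalised FPKM, where Tgfbr1 overlapped both others and these did not overlap each other, followed without overlap by Tgfbr3, Tgfb1, Ltbp1, Tgfb3, Tgfb2, Inhba and Ltbp2. In HN the order was Tgfbr2, Tgfbr1, Tgfb1 and Ltbp2, without overlap, then Tgfbr3, Bmp7, Inhba, Tgfb3 and Ltbp1, each of which overlapped its neighbour, and last Tgfb2 at 2.39. In PEC, Tgfbr2 was again first, Tgfbr1, Bmp7 and Tgfb1 overlapped between 9.0 and 7.77, and Inhba was last at 0.293.

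The genes closest in pattern were found by the root mean square difference of log2 levels over the 9 libraries, each gene set to a mean of 0, among 15916 genes. Within the group, Tgfb1 and Tgfb3 were closest, with 0.142. Outside it, Pmepa1 was closest to Tgfb1 (0.111), Col5a1 to Tgfb2 (0.159), Klhl23 to Tgfb3 (0.162), Pde7b to Tgfbr1 (0.159), Rcc2 to Tgfbr2 (0.0853), Dip2c to Tgfbr3 (0.0971), Zfp947 to Ltbp1 (0.105) and Lzts3 to Bmp7 (0.0856). Ltbp2 and Inhba had looser neighbours, Arhgap36 (0.436) and Col12a1 (0.452). Col12a1 averaged 0.764, 19.5 and 2.11 normalised FPKM in Control, HN and PEC, a likeness to Inhba that follows from how it was chosen.

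The rest of the pathway was read from 7 lists, none of which was tested as a set. Their counts are to be read beside the shares of all tested genes: 17.7% called higher and 14.7% lower in HN against Control, 13.4% and 15.3% in PEC against HN, and 18.9% and 17.4% in PEC against Control. Among other ligands of the superfamily, 19 of 25 were tested, of which 7 were called higher and 0 lower in HN against Control with edgeR. In PEC against HN 0 were higher and 4 lower, and in PEC against Control 5 were higher and 1 lower. Medians of the log2 fold change were 1.16, −0.51 and 0.47, against −0.00, −0.02 and 0.04 for all tested genes. Inhbb, the subunit of activin B, had levels of 1.16 ± 0.612, 8.79 ± 1.53 and 3.02 ± 0.79 normalised FPKM in Control, HN and PEC (SD, n = 3 each), with log2 fold changes of 2.92, −1.54 and 1.38, all called. Inhba and Inhbb, the tested activin beta subunit genes, were thus both high in HN and lower in PEC. Inha, the inhibin subunit, was higher in HN by 2.05 and in PEC by 1.73 than in Control. Lefty1, an inhibitor of Nodal, was higher in HN by 1.83 and lower in PEC than in HN by a log2 fold change of −1.31. Gdf6 was called higher in HN from counts of 8, 0 and 0 in Control and 67, 187 and 88 in HN, and since it passed the filter only through HN and PEC libraries, it had to differ from Control. Gdf7 and Gdf15 were also lower in PEC than in HN, and Gdf9, Gdf11 and Bmp15 higher and Bmp8a lower in PEC than in Control. Mstn, Inhbc, Inhbe, Nodal, Lefty2 and Amh had too few counts to test.

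Of the other receptors and co-receptors, 13 of 16 were tested. Called in HN against Control were 4, near the share of 32.4% of all genes, with 3 higher: the type I receptors Acvr1 (log2 fold change 1.02) and Acvrl1 (0.95) and the co-receptor Rgma (1.10). The type II receptor Acvr2b was called lower (−0.81), though its sign reversed once FPKM were rescaled to a common sum (0.09). Further genes of this list were called higher in HN under 5 of 8 other scalings, so that the number called depends on the scaling. Against HN, 0 were higher and 6 lower in PEC, including Acvrl1 (−0.88) and Acvr2b (−1.09), but the number called fell from 6 to 2 once the dependence on gene length and GC content was removed. Compared with Control, PEC had higher Acvr1 and Rgma and lower Bmpr1a, Bmpr2, Acvr2a and Acvr2b. The medians were 0.26, −0.40 and −0.13. Amhr2 and Hjv had too few counts, and Hfe2, the older name of Hjv, is not in the table.

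Latency and activation is the step at which stored TGF-beta is set free, and all 14 genes of this list were tested. Called were 9 higher and 1 lower (Itgb8) in HN against Control, 0 higher and 7 lower in PEC against HN, and 5 higher and 2 lower in PEC against Control, and the other 4, 7 and 7 genes were not called. Its medians were 0.93, −0.84 and 0.46. Thrombospondin 1, which can activate latent TGF-beta, is encoded by Thbs1, with 14.3 ± 1.7, 72.8 ± 16.9 and 20.8 ± 2.94 normalised FPKM in Control, HN and PEC (SD, n = 3 each). Thbs1 was called in both comparisons with HN, at 2.34 against Control and −1.81 for PEC. Fibrillin 1 (Fbn1), to which latent complexes are anchored, was higher in HN by 2.79 and lower in PEC than in HN by a log2 fold change of −1.60. Bmp1, a protease that cuts latent binding proteins, gave 3.0 and −0.93, and Nrros, which tethers latent TGF-beta on myeloid cells, gave 2.17 in HN against Control. The integrin gene Itgb8, whose product activates latent TGF-beta, went the other way in HN, with 25.9 ± 3.93, 13.3 ± 1.96 and 4.46 ± 0.719 normalised FPKM (SD, n = 3 each), and was called lower in all 3 comparisons. Ltbp3, Nrros, Fbn1, Itgb6 and Bmp1 were higher in PEC than in Control, and Ltbp4 was lower beside Itgb8.

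Antagonists and modulators of BMPs and activins were tested for 16 of 17 genes. In HN against Control 3 were called higher (Grem1, Nbl1 and Fstl3) and 2 lower (Chrdl1 and Sost), near the share of 32.4% called among all genes, with a median of 0.01. Gremlin 1, encoded by Grem1, binds BMP2, BMP4 and BMP7. Its transcript was at 0.374, 0.649 and 0.271 normalised FPKM (Control), 3.79, 2.43 and 1.66 (HN) and 0.425, 0.546 and 0.71 (PEC). Only HN stood apart, since Control and PEC overlapped. The log2 fold change was 2.60 (SE 0.41, edgeR adjusted p = 0.000796) in HN against Control and −2.23 (SE 0.40, adjusted p = 0.00239) in PEC against HN. Nbl1 was at 6.7 ± 1.42, 30.2 ± 3.1 and 15.7 ± 3.92 normalised FPKM (SD, n = 3 each), with log2 fold changes of 2.17, −0.94 and 1.23, all called. Chrdl1 was lower than in Control in HN (−3.24) and in PEC (−3.30). Sost had counts of 38, 38 and 60 in Control and 4, 0 and 4 in HN, and passed the filter only with the Control libraries, so that it had to differ. Relative to HN, 1 was higher (Dand5, 0.68) and 6 lower in PEC, with a median of −0.26, and in PEC against Control Nbl1 was higher and Chrdl1, Twsg1 and Crim1 lower, with a median of 0.02. Cer1 had too few counts to test.

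The 13 genes of SMADs and their regulators were all tested. HN had Smad1 (1.02), Smad3 (0.63), Smurf1 (1.03) and Tgif1 (1.56) called higher than Control and Smad9 (−1.57) lower. Other genes of this list were called higher in HN under 5 of 8 other scalings, so that this number too depends on the scaling. PEC had 0 higher and 5 lower than HN: Smad1 (−0.60), Smad4 (−0.73), Smad6 (−0.97), Smad7 (−0.64) and Skil (−1.40). Smad4 is the partner shared by the SMADs that the receptors phosphorylate, and Smad6, Smad7 and Skil act against the pathway. Tgif1 was higher and Smad6, Skil and Smurf2 lower in PEC than in Control. The medians were 0.34, −0.51 and −0.35, so that both comparisons with PEC lay below those of all genes.

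Genes that TGF-beta induces were tested for 13 of 14 names, since Ctgf is listed under its newer name Ccn2. In HN against Control 10 were called higher and 0 lower, in PEC against HN 0 and 9, and in PEC against Control 8 and 1 (Skil). The medians were 2.15, −0.92 and 1.37. Ltbp2, which is among the 10 genes above, is also in this list and among those counted, although it had to differ from Control. Col1a1, a fibrillar collagen gene, gave 4.26, −0.92 and 3.34, all called. Timp1, an inhibitor of matrix proteases, was higher in HN by 5.69 and in PEC by 5.21 than in Control and was not called in PEC against HN, where its level was 69.5 ± 10.5 in HN and 50.0 ± 9.57 normalised FPKM in PEC (SD, n = 3 each).

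Of 11 tested genes that BMPs induce, 1 was called higher (Id3, 0.82) and 3 lower (Id2, −1.07; Id4, −0.80; and Smad9) in HN against Control. Between PEC and HN 0 were higher and 1 lower (Smad6), and in PEC against Control 0 were higher and 2 lower (Id2 and Smad6). Medians were −0.10, −0.10 and −0.19. The sign of Id4 reversed once FPKM were rescaled to a common sum (0.12). The 2 lists of induced genes were not tested against each other.

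Of the calls of named list genes, some rested on the scaling. In HN against Control, those of Acvr2b, Itgb8, Id2 and Id4 held under 3 of 8 other scalings, as did Dand5 in PEC against HN. For PEC against Control, Smurf2 held under 3, Id2 under 2, and Bmpr1a and Ltbp4 under 1. Bmpr2 (−1.03 to −0.20) and Skil (−1.04 to −0.34) held there under 6, and Acvr2a (−1.14 to −0.54), Rgma, Smad6 and Twsg1 under 7. Smad1 in PEC against HN held under 6 (−1.07 to −0.47), Acvr2b and Smad7 there under 7, and Smad3 in HN against Control under 7. Gdf6, Gdf7, Gdf9, Bmp15, Bmp8a, Lefty1, Chrdl1, Sost and Smad9 were not tested with limma on FPKM, so that 5 other scalings cover them. Of these 5, Bmp8a in PEC against Control held under 3, and Gdf9 there and Gdf7 in PEC against HN under 4, and the other calls given for these genes under all 5. Some calls also rested on single libraries. In HN against Control, Id2 was not called without Control 2 or any 1 HN library (−1.10 to −0.83), Id3 without Control 5 or any 1 HN library (0.59 to 0.87), Fstl3 without Control 4, Control 5, HN 4 or HN 8 (0.58 to 0.72), and Smad3 without Control 4 or HN 4 (0.57 to 0.58). In PEC against HN, the call was lost for Lefty1 without HN 8, HN 12, PEC 1 or PEC 2 (−1.34 to −1.03), for Gdf15 without any 1 HN library or PEC 2 (−1.30 to −1.05), for Smad1 without HN 4 or PEC 3 (−0.55 to −0.49) and for Smad7 without HN 4, HN 8, PEC 1 or PEC 3 (−0.66 to −0.56). The comparison of PEC with Control lost Rgma without Control 2 or PEC 3 (0.54 to 0.58), Ltbp4 without PEC 2 (−0.56) and Bmp8a without Control 2, Control 4 or PEC 3 (−1.52 to −1.16). It was also lost there for Id2 without Control 2, Control 4, PEC 3 or any 1 HN library (−1.02 to −0.72), for Bmp15 without any 1 Control library, PEC 2 or PEC 3 (0.95 to 1.11), and for Gdf9 without any 1 library except PEC 1 (1.15 to 1.68).

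**Figure D5:**
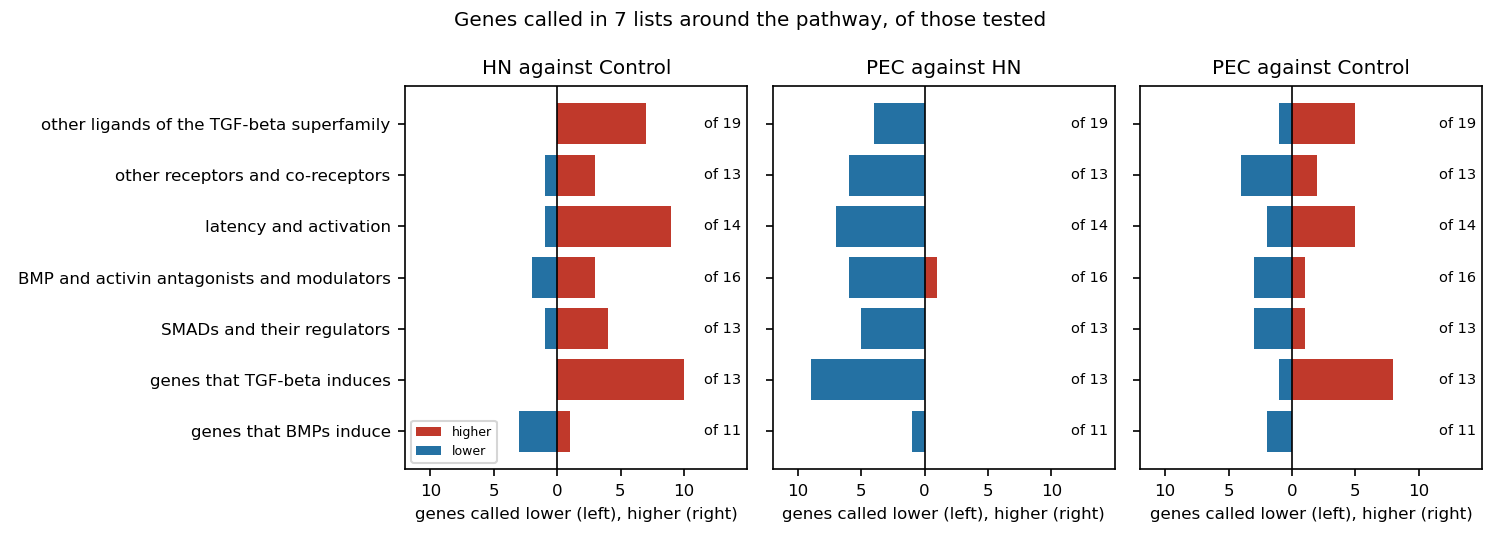
Number of genes called lower (bars to the left) and higher (bars to the right) in 7 lists of pathway genes, with the number tested at the right edge, in 3 comparisons. Of the named genes behind these bars, Acvr2b and Id4 (HN against Control) change sign once FPKM are rescaled to a common sum.

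Markers of some cell types differed between the groups and those of others did not. The numbers called among them stand beside 17.7% called higher and 14.7% lower of all tested genes in HN against Control. In PEC against HN these shares were 13.4% and 15.3%. Podocyte markers, led by Podxl, summed to 65.74 ± 1.594, 61.28 ± 5.73 and 70.0 ± 4.605 normalised FPKM in Control, HN and PEC (SD, n = 3 each), with 0 of 3 called. Fibroblast and pericyte markers were higher in HN in 5 of 5 genes and lower in PEC against HN in 4, and summed to 30.7, 29.39 and 23.29 normalised FPKM (Control), 146.1, 148.6 and 134.5 (HN) and 69.48, 75.83 and 66.91 (PEC), with Col3a1 the most abundant. Macrophage markers were higher in HN in 4 of 4 genes and lower in PEC against HN in 3, with sums of 24.71, 29.01 and 28.02, 271.8, 309.8 and 238.9, and 104.6, 114.1 and 171.8, and C1qa the most abundant. In both sums, HN was above PEC and PEC above Control in every library, but single markers differed: Pdgfra in PEC (4.67, 5.1 and 5.18) lay within Control, and Cd68 in PEC 3 (18.7) lay above HN 4 (17.4) and HN 12 (17.8).

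Injured tubule markers were higher in HN in 3 of 3 genes, with Havcr1 the most abundant, and summed to 5.701, 4.906 and 2.209 normalised FPKM (Control), 413.6, 407.5 and 393.1 (HN) and 288.5, 316.3 and 337.1 (PEC), where 0 were called against HN. Proximal tubule markers, led by Slc34a1, were lower in HN in 4 of 4 genes and higher in PEC against HN in 4, with sums of 1054.0, 1108.0 and 1210.0, 258.9, 235.0 and 248.0, and 550.2, 648.2 and 399.7. This is the order of Bmp7, highest in Control and lowest in HN, and the mean sums of distal convoluted tubule (76.04, 37.59 and 69.54) and collecting duct markers (355.5, 136.9 and 193.2 in Control, HN and PEC) had it too. Their PEC and Control libraries overlapped, with distal sums of 82.05 in PEC 2 and 71.53 in Control 2. Collecting duct sums were 233.1 in PEC 3 and 210.7 in Control 5. Mean sums of thick ascending limb markers (1320, 1220 and 1220) lacked this order. Platelet markers, led by Pf4, were higher in HN in 2 of 3 genes and lower in 1, and summed to 1.517, 1.9 and 1.829, 9.68, 7.057 and 10.3, and 4.915, 4.042 and 2.94. T cell markers were higher in HN in 3 of 3 genes, with sums of at most 5.036 normalised FPKM. Lower in HN were 1 of 2 thick ascending limb, 2 of 2 distal convoluted tubule, 2 of 3 collecting duct and 1 of 4 endothelial markers, against 14.7% of all tested genes. A single call among so few genes is not read as a change of that cell type. Of 3 adipocyte markers, 0 were called. Except for Adipoq and Plin1, no marker of the cell types given here was at 0 in a library, and the part of any of these cell types in the levels of the 10 genes was not tested.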

How the data were processed

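Gene counts and FPKM were taken as deposited by the authors. How the authors made the counts of this table is not given in the sources used here: their notes name Bowtie 0.12.2 and the builds mm8 and mm9, whereas the coordinates of the table are those of GRCm38. FPKM in the deposited table are the authors' counts divided by gene length and library size. Poly(A) RNA was isolated, and the labels name kidney as the tissue.

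Counts were tested with edgeR 4.0.16 in R 4.3.3 (limma 3.58.1, DESeq2 1.42.0), with TMM factors, genes filtered at a minimum count of 10, 9 libraries fitted by group, and p adjusted by Benjamini and Hochberg. Ratios, sums and figures used Python 3.11.15 (numpy 2.4.6, pandas 2.3.3, scipy 1.17.1, matplotlib 3.10.9). The 10 genes, the 7 pathway lists and the marker lists were chosen by name, with earlier results of these data known. List genes were named where they were among the 4 largest calls of their list in HN against Control or in a count of at most 5, and neighbours as the closest gene; Col12a1 was given values after these were seen. Genes not named by this rule are only counted, and 1 list gene that met it and 1 marker list are not reported here.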

Additional observations from a re-analysis of the deposited data

How the results depend on the processing

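Fold changes and counts of called genes were repeated with 8 other scalings and tools (5 for low-count list genes that limma did not test), without the filter, with only the 2 groups compared, with unadjusted p, without a minimum fold, and without each library. Ratios were repeated in counts and without each library. Non-overlap of the 10 genes was also read in deposited FPKM. Sums, nearest genes and markers were not repeated. Scaling by nuclear protein-coding counts was chosen after seeing the data. No paired analysis was possible because any 2 groups share at most 1 replicate number.

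Tgfbr3 in HN against Control changed sign to 0.24 with library totals, 0.19 and 0.22 with limma on FPKM (pseudocount 1 and 0.1), 0.58 with FPKM rescaled to a common sum and 0.14 with nuclear protein-coding counts. Ltbp1 in PEC against Control changed to 0.32, 0.16, 0.23, 0.22 and 0.38 under the same 5, to 0.11 with upper-quartile factors and to 0.17 with the length and GC dependence removed, and ran from −0.27 to 0.07 as each library was left out. Tgfbr1 in PEC against Control changed to 0.14 with the length and GC dependence removed, and Bmp7 there ran from −0.63, called lower with that dependence removed, to 0.00 with nuclear protein-coding counts. Inhba there ran from 0.26 to 2.18, and in HN against Control from 2.29 to 5.80. Ltbp2 ran from 3.36 to 10.22 in HN against Control and from 2.23 to 8.97 in PEC against Control. The call of Bmp7 in PEC against HN was also lost without the filter (0.58). With FPKM rescaled to a common sum, Acvr2b changed to 0.09 and Id4 to 0.12 in HN against Control. Counts of called list genes also moved under these alternatives. In HN against Control, uncalled genes of several lists were called higher under 5 of 8 other scalings. The cause of these shifts was not tested.

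Each group had 3 mice, and only 1 dose and 1 time point were sampled. Bulk kidney tissue mixes cell types, whose proportions were not measured apart from marker transcripts. Transcript levels do not give the amount or activation of TGF-beta protein, most of which is stored in latent form. PEC libraries differ from the others in ribosomal RNA and in the relation of fold change to gene length, and PEC 3 in adipocyte transcripts. The mitochondrial share differs between groups, and its part in the scaling shifts was not tested. Ltbp2 and Inhba are near 0 in Control, so their fold changes against it are imprecise.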
